A study of Homo sapiens with 24 samples.

Results

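Histone genes were followed across PMCA2, NHERF1 and HER2 knockdown in SKBR3 cells, a human breast cancer line in which the HER2 gene ERBB2 is amplified. The members are the genes whose symbol in the array annotation starts with H1-, H2AC, H2BC, H3C or H4C and a number, without pseudogenes, each read by its probe with the highest mean intensity over the 24 arrays. There were 72 of them among 20046 genes with a probe. By RefSeq position 55 lie in the histone cluster on chromosome 6, 11 in the large cluster on chromosome 1 and 2 in a small cluster on chromosome 1. The other 4 (H1-7, H1-8, H1-10 and H4C16) met the naming rule but lie outside these clusters.

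The study set SKBR3 cells with PMCA2 kd, SKBR3 cells with NHERF1 kd and SKBR3 cells with HER2 kd against SKBR3 control cells, with 6 arrays in each group. Knockdown was by shRNA-carrying lentivirus added to the culture medium for 48 hours, and the virus, if any, given to the control cells is not given in the sources used here. PMCA2 is a plasma membrane calcium pump encoded by ATP2B2, and NHERF1 is a scaffold protein that holds membrane proteins at the cell cortex. Biotin-labelled cRNA was hybridised to Illumina bead arrays, and each group had 3 arrays on each of 2 chips. No label says that the 6 arrays of a group came from separate cultures, so the p-values measure the spread between arrays, which may be technical.

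Histones package DNA. Pairs of H2A with H2B and of H3 with H4 form the nucleosome core, and the linker histone H1 binds where DNA enters and leaves it. Most genes named here are replication-dependent: they are transcribed in S phase, when new DNA must be packaged, and their mRNAs end in a stem-loop in place of a poly(A) tail. Some of them, H1-2, H2AC6, H2BC5, H2BC12 and H2BC21 among them, are known to make polyadenylated transcripts as well, which are read in cells that differentiate or leave the cycle. The labelling kit primes from poly(A), so the intensities weigh polyadenylated forms; how the 2 forms divide in these cells was not tested. In these bulk samples fewer cells making an mRNA and less of that mRNA per cell cannot be told apart.

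A probe was taken as above background on an array where its deposited intensity passed 106, the 95th percentile of 437 olfactory receptor probes. Of the 72 genes, 41 passed this floor on at least 6 arrays and were tested. These were 4 of 9 H1, 9 of 17 H2A, 11 of 18 H2B, 10 of 13 H3 and 7 of 15 H4 genes, and 25 of the 41 passed the floor on all 24 arrays. Of the 31 genes not tested, 17 passed it on no array. H3C2, on 6 arrays, was just inside the filter with a mean intensity of 102.9, and H2BC26, on 5 arrays with a mean of 102.88, was just outside. A gene can enter through the group in which it is high, so counts over the 41 describe those genes and not the 72. Clustered genes are near-copies of each other in their coding parts, and how far a probe also reads a neighbour was not tested; H2AC18 and H2AC19, which are copies of each other, may be read as 1 signal. Fold changes below come from limma on background-corrected log2 intensities fitted over 12469 genes, so they exceed the ratio of the raw intensities for dim probes. Errors are standard errors of that fit with n = 6 arrays a group, and a gene was called at a Benjamini-Hochberg adjusted p under 0.05.

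Arrays resembled each other closely within a group (median r = 0.996 within a chip) and less so between control and knockdown (median r = 0.937). After background correction and normalization, NHERF1 signal in NHERF1 knockdown was 8.1% of control. It was 54.1% in PMCA2 knockdown and 62.9% in HER2 knockdown. ERBB2 signal on the same scale was 50.9% of control in PMCA2 knockdown, 31.5% in NHERF1 knockdown and 53.3% in HER2 knockdown. The array thus does not set the HER2 knockdown apart by its own target. ATP2B2 passed the floor on 1 of the 24 arrays, so the PMCA2 label could not be checked. Of 12 luminal breast markers, the summed intensity was 21920 to 23160 in PMCA2 knockdown, 18840 to 19470 in NHERF1 knockdown and 20400 to 21930 in HER2 knockdown, against 39850 to 43580 in control; CDH1 was at background in all 4 groups, and SPDEF and TFF3 were at background in the knockdowns. Of 12 trophoblast markers the sum was 7011 to 7633, 3293 to 3445 and 2125 to 2274 in the same 3 knockdowns, against 1460 to 1526 in control, with 10, 9 and 7 markers above the floor on all 6 arrays, against 3 in control. Fibroblast sums ran from 817 to 863, 861 to 894 and 899 to 933, against 776 to 798, with LUM, THY1 and FAP at background in every group; immune cell sums ran from 695 to 745, 732 to 763 and 622 to 679, against 655 to 682, with CD3E at background throughout. The part of these markers in the histone results was not tested.

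The sequence before the start is shown for 8 of the 12 genes with the largest differences from control, picked after their values were seen to cover the H1, H2A, H2B and H4 classes, since promoter letters differ by class; H2AC6, H2AC19, H2BC8 and H4C14 are the 4 not shown. Promoters are from RefSeq, build GRCh38.p14, and 67 of the 72 genes had one. Each line gives the 150 bases before the annotated start, 5′ to 3′ on the gene's strand. Capitals mark matches, on either strand, to TATAAA, to the box CCAAT, which NF-Y binds, to the octamer ATTTGCAT of H2B promoters, which POU2F1 binds, to GGTCCG, letters of the H4 element that HINFP binds, and to the H1 box AAACACA. The regions are chr6:26056471-26056620 on the minus strand for H1-2, chr1:149842751-149842900 on the minus strand for H2AC18, chr1:149886768-149886917 on the plus strand for H2AC20 and chr1:149886683-149886832 on the minus strand for H2BC21. They are chr6:26157971-26158120 on the plus strand for H2BC5, chr6:27146859-27147008 on the minus strand for H2BC12, chr6:26285535-26285684 on the minus strand for H4C8 and chr6:27831561-27831710 on the minus strand for H4C12.
H1-2: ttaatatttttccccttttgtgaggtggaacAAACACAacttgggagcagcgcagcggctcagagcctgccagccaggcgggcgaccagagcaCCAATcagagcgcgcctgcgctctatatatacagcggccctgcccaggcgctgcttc
H2AC18: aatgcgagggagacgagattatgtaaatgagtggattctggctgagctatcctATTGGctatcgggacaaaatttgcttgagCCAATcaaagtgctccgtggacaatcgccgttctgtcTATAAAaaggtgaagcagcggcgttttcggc
H2AC20: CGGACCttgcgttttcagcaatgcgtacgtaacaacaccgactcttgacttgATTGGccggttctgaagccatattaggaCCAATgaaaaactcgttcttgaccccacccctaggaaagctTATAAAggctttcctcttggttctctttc
H2BC21: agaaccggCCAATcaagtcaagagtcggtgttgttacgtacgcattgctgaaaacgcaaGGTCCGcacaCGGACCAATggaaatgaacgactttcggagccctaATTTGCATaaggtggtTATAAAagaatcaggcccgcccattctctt
H2BC5: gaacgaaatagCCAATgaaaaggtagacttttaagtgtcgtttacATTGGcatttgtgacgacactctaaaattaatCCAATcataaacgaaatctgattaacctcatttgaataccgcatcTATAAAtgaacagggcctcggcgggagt
H2BC12: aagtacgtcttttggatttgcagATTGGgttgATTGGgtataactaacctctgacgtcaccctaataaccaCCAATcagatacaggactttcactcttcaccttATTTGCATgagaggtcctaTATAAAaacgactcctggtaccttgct
H4C8: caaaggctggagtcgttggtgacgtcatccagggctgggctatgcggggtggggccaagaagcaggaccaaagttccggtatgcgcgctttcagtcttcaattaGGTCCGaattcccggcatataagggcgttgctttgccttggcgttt
H4C12: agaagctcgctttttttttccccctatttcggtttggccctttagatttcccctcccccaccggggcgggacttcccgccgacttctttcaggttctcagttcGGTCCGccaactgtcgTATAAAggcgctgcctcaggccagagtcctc

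CCAAT was found in the promoters of 16 of 16 H2A, 18 of 18 H2B and 11 of 11 H3 genes, of 7 of 9 H1 genes and of 3 of 13 H4 genes, against 24.4% of all 27305 promoters of that length. GGTCCG was found in 12 of 13 H4 promoters, or 92.3%, against 5.99% of all promoters. The octamer was found in 14 of 18 H2B promoters, or 77.8%, against 0.985% of all, and the H1 box in 6 of 9 H1 promoters, or 66.7%, against 2.77% of all. TATAAA was found in 53.7% of the 67 histone promoters, against 7.05% of all. In H2BC21 the GGTCCG match on the opposite strand shares letters with a CCAAT match, and H2BC21 and H2AC20 face away from each other over a gap so short that their windows overlap. A match is a run of letters and does not show that a factor binds.

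In PMCA2 knockdown most of the tested histone genes of the H2A and H2B classes rose and most tested H4 genes fell. Of the 41 tested genes, 25 were called higher than control and 5 lower, where 33.8% of all tested genes were called higher and 33% lower (66.9% in either direction). The median difference was 0.36 log2 units over the 41 genes and 0 over all genes. Of the 25 genes above the floor on all 24 arrays, 18 were called higher and 5 lower. All 9 tested H2A genes and 8 of 11 H2B genes rose, with medians of 0.85 and 0.51, and the other 3 H2B genes (H2BC7, H2BC9 and H2BC15) were not called. H2BC6, among those 8, passed the floor on 6 PMCA2 knockdown arrays, 1 NHERF1 knockdown, 0 HER2 knockdown and 1 control array. It thus entered the tested genes through the group in which it is high, and its rise does not count as support. For H3 the count was 5 higher and 0 lower of 10, and for H1 2 higher of 4. H3C14, among the 5 H3 genes, passed the floor on 5 PMCA2 knockdown, 5 HER2 knockdown, 1 control and 0 NHERF1 knockdown arrays. It entered mainly through the 2 knockdowns in which it was called higher. Its rise here, at least 1.09-fold, does not count as support. Of the 7 H4 genes 5 fell, H4C5 rose and H4C11 was not called, and the H4 median was -0.39. The steepest rises were those of H2BC21 (3.25-fold), H2AC19 (2.31-fold) and H2AC18 (2.28-fold), and the H4 genes that fell did so by 1.29-fold to 1.37-fold.

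In NHERF1 knockdown falls were called among the H2A, H2B, H3 and H4 genes and for H1-2, and limma called none of the 41 higher. There were 23 genes called lower and 0 higher, where 30.9% of all tested genes were called lower and 35.7% higher (66.6% in either direction). The median difference was -0.26 log2 units, against 0.02 over all genes. Falls were called for 6 of 7 H4, 6 of 11 H2B, 5 of 9 H2A, 5 of 10 H3 and 1 of 4 H1 genes. The H1 gene was H1-2, and the H1 median was 0 log2 units. H3C3, among the 5 H3 genes, passed the filter only with the control arrays counted, so its fall does not count as support. The H3 genes called include H3C13, at -0.26 log2 units by the probe used, with arrays that overlapped control. Further H3C13 probes, above the floor on 17 and 19 arrays, gave 0.17 and -0.04 log2 units, so its fall rests on the probe chosen. H4C8 fell 4.96-fold and H1-2 fell 2.5-fold, and H4C12, H2BC5, H2AC19, H2AC20, H2AC6 and H4C14 fell between 2.2-fold and 2.39-fold. At an unadjusted p under 0.05 the counts were 0 higher and 24 lower. The highest value among the 41 was 0.13 ± 0.12 log2 units for H2AC17 (adjusted p = 0.343).

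In HER2 knockdown more histone genes fell than rose. Of the 41 genes 21 were called lower and 7 higher, where 31.8% of all tested genes were called lower and 35.3% higher (67.1% in either direction), and the median was -0.18 log2 units, against 0.02 over all genes. H4C12 fell 2.5-fold and H4C8 fell 2.49-fold, and 5 of 7 H4 genes fell in all. The H2A genes divided into 5 lower (H2AC6, H2AC18, H2AC19, H2AC20 and H2AC21) and 3 higher (H2AC11, H2AC17 and H2AC25), and the H2B genes into 5 lower and 2 higher (H2BC18 and H2BC21). H1-10, H2AC25, H2BC18 and H2BC21 rose by 1.59-fold, 1.44-fold, 1.47-fold and 1.35-fold. Further H2BC18 probes, above the floor on 0 arrays, gave 0.12 and -0.04 log2 units, beside 0.56 from the probe used. Of the 7 higher calls, those of H2AC11, H2AC17 and H3C14 had adjusted p between 0.0357 and 0.0481, and the count was 4 on each chip alone, without background correction, with no filter, and without HER2 knockdown replicate 1, 2 or 5 or control replicate 4. H3C14 entered the tested genes mainly through PMCA2 and HER2 knockdown arrays, so its rise, at least 1.04-fold, does not count as support. H3C3, among the 21 lower, passed the filter only with the control arrays counted. The 3 knockdowns were set against the same 6 control arrays, so their differences from control are not independent of each other.

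**Figure D1:**
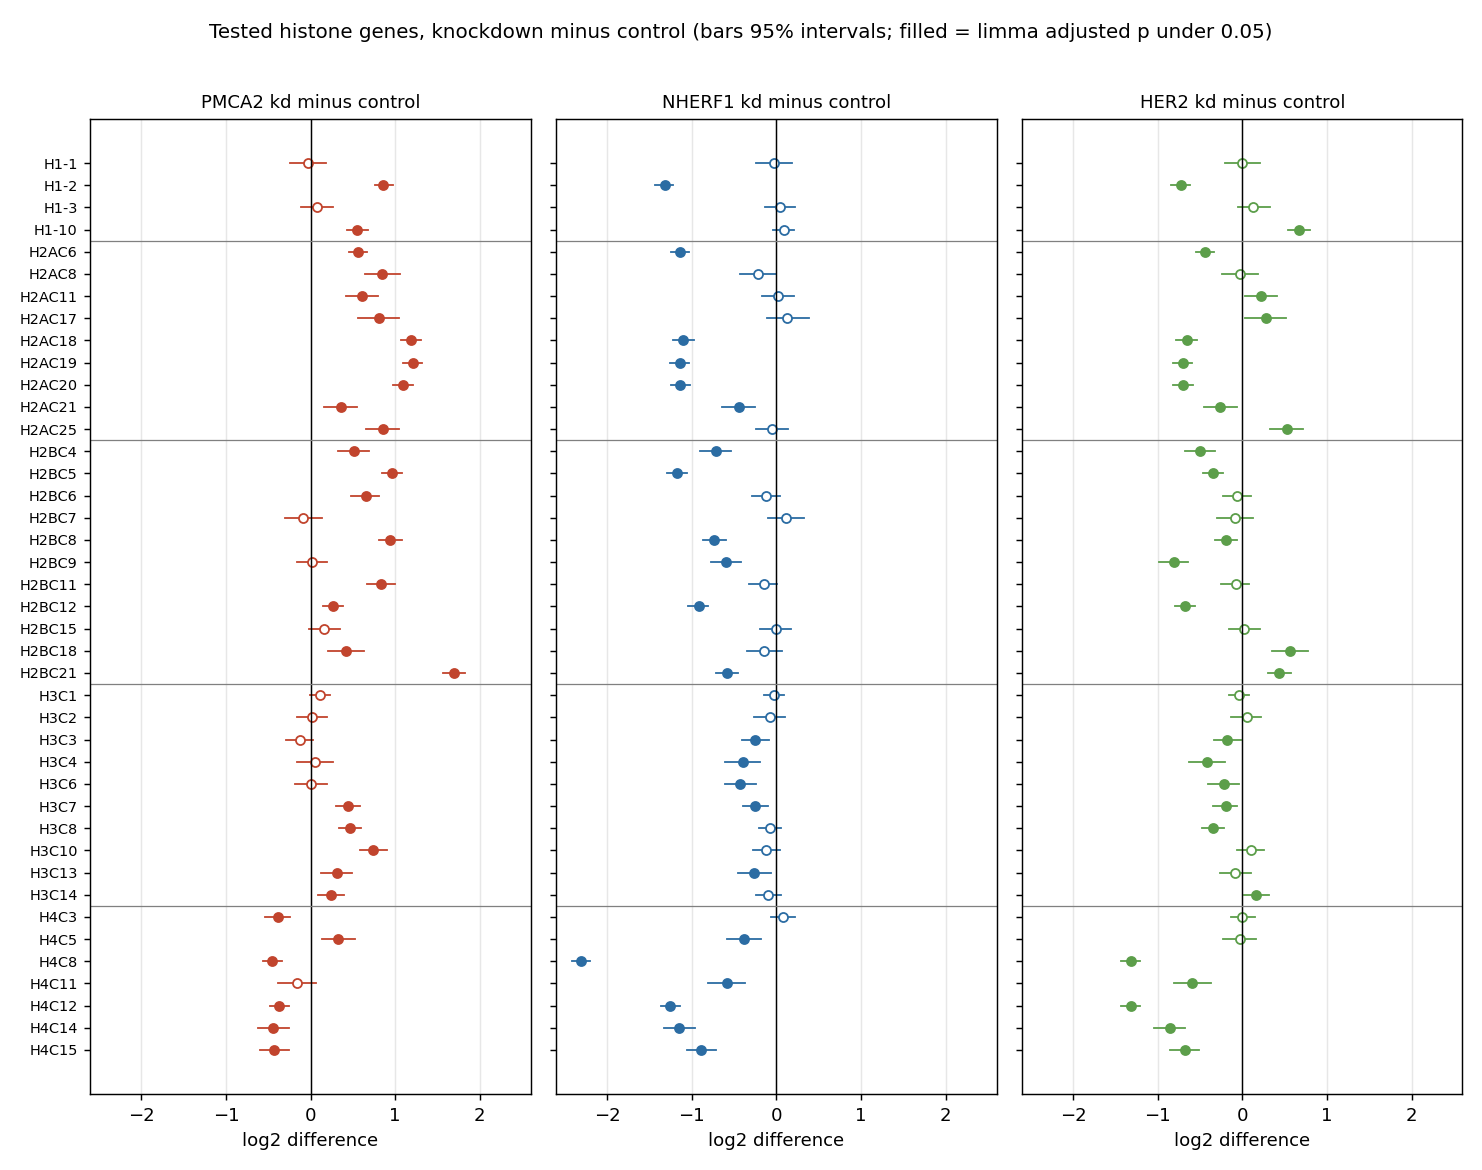
Log2 difference from control (x axis) of the 41 tested histone genes (y axis, by class H1, H2A, H2B, H3, H4 from top), in PMCA2, NHERF1 and HER2 knockdown from left to right; bars are 95% intervals and filled points have a limma adjusted p under 0.05, with n = 6 arrays a group. The left panel holds 25 filled points right of 0, the middle panel none, and H4C8 lies farthest left at -2.31 in the middle panel.

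Among the linker histones H1-2, a main H1 of dividing cells, moved in all 3 knockdowns. Its intensity ran from 1055 to 1241 (median 1128) in PMCA2 knockdown, 294 to 329 (median 317) in NHERF1 knockdown and 412 to 449 (median 430) in HER2 knockdown, against 643 to 674 (median 661) in control. No array of any group overlapped another group. It was 0.86 ± 0.05 log2 units higher in PMCA2 knockdown (adjusted p = 2.19e-14), and lower by 1.66-fold in HER2 knockdown (adjusted p = 8.75e-13). H1-10, a replication-independent linker histone outside the clusters, had medians of 397 in PMCA2 knockdown, 311 in NHERF1 knockdown and 422 in HER2 knockdown, against 296 in control. It rose 1.47-fold in PMCA2 knockdown and 1.59-fold in HER2 knockdown, and was 0.09 ± 0.06 log2 units above control in NHERF1 knockdown (adjusted p = 0.222). H1-1 and H1-3 lay at the floor, with medians of 100 to 108 in all groups, and were called nowhere.

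Of the 4 tested H2A genes of the large chromosome 1 cluster, H2AC18, H2AC19 and H2AC20 had nearly the same differences from control, and H2AC21 had smaller ones. H2AC18 ran from 1270 to 1589 (median 1467) in PMCA2 knockdown, 327 to 384 (median 367) in NHERF1 knockdown and 441 to 485 (median 456) in HER2 knockdown, against 638 to 729 (median 678) in control. The groups did not overlap. It was 2.28-fold higher in PMCA2 knockdown, 2.14-fold lower in NHERF1 knockdown and 1.58-fold lower in HER2 knockdown (adjusted p = 2.73e-16, 1.6e-15 and 7.56e-11). A second H2AC18 probe gave 1.02, -1.13 and -0.68 log2 units in the same order, beside 1.19, -1.1 and -0.66 from the probe used. Its copy H2AC19 had medians of 1408, 329 and 428 in the 3 knockdowns, against 646 in control. H2AC20 ran from 954 to 1091 (median 1058) in PMCA2 knockdown, 262 to 321 (median 286) in NHERF1 knockdown and 346 to 379 (median 359) in HER2 knockdown, against 496 to 580 (median 536) in control. Here too every array of PMCA2 knockdown stood above, and every array of the other 2 knockdowns below, every control array.

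On chromosome 6, H2AC6, an H2A gene known for polyadenylated transcripts, ran from 279 to 317 (median 295) in PMCA2 knockdown, 143 to 155 (median 146) in NHERF1 knockdown and 179 to 194 (median 189) in HER2 knockdown, against 218 to 234 (median 226) in control. The groups did not overlap, and the gene was 1.48-fold higher, 2.2-fold lower and 1.36-fold lower than control (adjusted p = 2.94e-10, 8.58e-17 and 2.58e-08). With no background correction the calls stood and the falls were -0.62 and -0.27 log2 units in NHERF1 and HER2 knockdown, beside -1.14 and -0.44. H2AC25, of the small chromosome 1 cluster, had medians of 635 in PMCA2 knockdown, 377 in NHERF1 knockdown and 511 in HER2 knockdown, against 387 in control. It rose 1.81-fold in PMCA2 knockdown and 1.44-fold in HER2 knockdown, and was -0.05 ± 0.09 log2 units from control in NHERF1 knockdown (adjusted p = 0.664). H2AC8, H2AC11 and H2AC17 had median intensities of 132 each in PMCA2 knockdown, against 109, 116 and 112 in control, and rose there by 1.8-fold, 1.53-fold and 1.75-fold. A further H2AC11 probe, above the floor on 0 arrays, gave -0.03 log2 units there, beside 0.61 from the probe used. H2AC21, of the large chromosome 1 cluster, had 0.36, -0.44 and -0.26 log2 units in PMCA2, NHERF1 and HER2 knockdown, with arrays that overlapped control in each case. It was at background on 6 of 6 NHERF1 knockdown arrays, and its fall there was at least 1.18-fold, a bound set against the lowest measurable signal.

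H2BC21 had the largest rise of the tested H2B genes in PMCA2 knockdown; in NHERF1 and HER2 knockdown other H2B genes, such as H2BC12, differed more from control. It ran from 429 to 487 (median 467) in PMCA2 knockdown, 153 to 167 (median 160) in NHERF1 knockdown and 226 to 274 (median 237) in HER2 knockdown, against 190 to 210 (median 199) in control. The 4 groups were separate, with PMCA2 and HER2 knockdown above control and NHERF1 knockdown below. The differences from control were 1.7, -0.58 and 0.43 log2 units in the order PMCA2, NHERF1, HER2 knockdown, each ± 0.06 (adjusted p = 6.82e-19, 7.44e-09 and 9.69e-07). Without background correction the differences in NHERF1 and HER2 knockdown were -0.31 and 0.27. H2BC5, which also makes a polyadenylated mRNA, had medians of 1153, 327 and 509 in the 3 knockdowns, against 639 in control. It rose 1.95-fold in PMCA2 knockdown and fell 2.25-fold in NHERF1 knockdown and 1.28-fold in HER2 knockdown, with no overlap between groups. A second probe above background gave 0.84, -1.25 and -0.46 log2 units, beside 0.96, -1.17 and -0.35, and the third did not pass the floor on any array.

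H2BC12 ran from 4508 to 5671 (median 5067) in PMCA2 knockdown, 2159 to 2429 (median 2217) in NHERF1 knockdown and 2344 to 2948 (median 2707) in HER2 knockdown, against 4000 to 4445 (median 4217) in control. Every PMCA2 knockdown array was above every control array, while NHERF1 and HER2 knockdown overlapped each other below control. The rise in PMCA2 knockdown was 0.26 ± 0.06 log2 units by this probe (adjusted p = 0.000182) and 0.54 by a second probe, and the falls were -0.92 and -0.68 in NHERF1 and HER2 knockdown, beside -0.97 and -0.72. H2BC8 had medians of 189 in PMCA2 knockdown, 115 in NHERF1 knockdown and 129 in HER2 knockdown, against 138 in control, and it rose 1.93-fold in PMCA2 knockdown and fell 1.67-fold in NHERF1 knockdown. Its -0.2 ± 0.06 log2 units in HER2 knockdown (adjusted p = 0.00902) was not called on chip 1 alone (adjusted p = 0.116) or chip 2 alone (adjusted p = 0.062). Its differences without background correction were 0.46, -0.26 and -0.08 log2 units in PMCA2, NHERF1 and HER2 knockdown, beside 0.94, -0.74 and -0.2. H2BC9 was not called in PMCA2 knockdown, at 0.02 ± 0.09 log2 units (adjusted p = 0.871), and fell 1.51-fold in NHERF1 knockdown and 1.75-fold in HER2 knockdown. H2BC4 fell at least 1.52-fold in NHERF1 knockdown, where 2 of 6 arrays passed the floor.

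**Figure D2:**
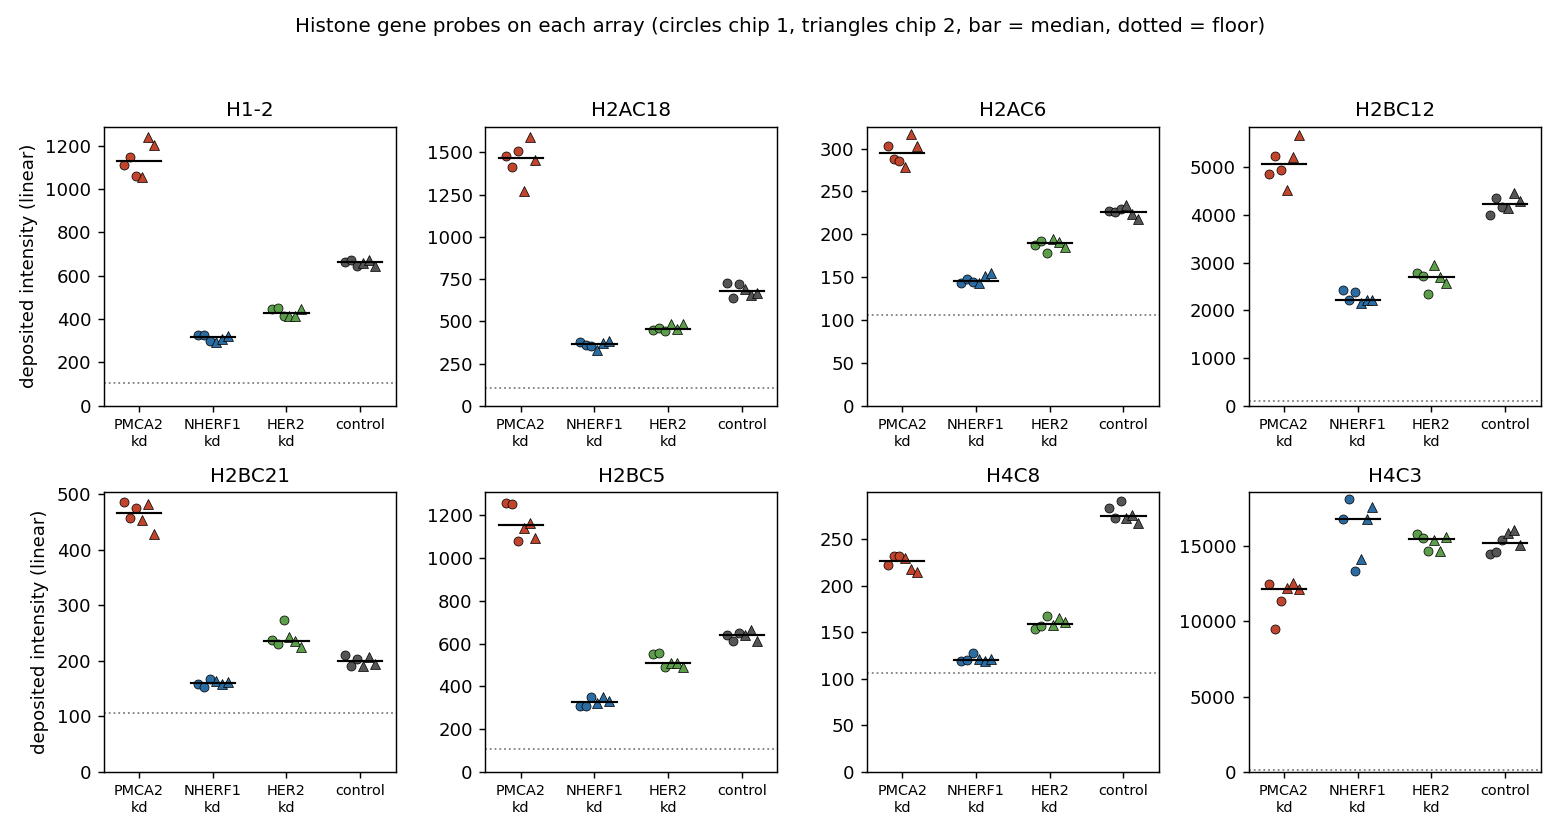
Deposited intensity (y axis, linear, from 0) of 8 histone genes on each of the 24 arrays, in PMCA2, NHERF1 and HER2 knockdown and control (x axis); circles are chip 1, triangles chip 2, bars medians of 6 arrays and the dotted line the floor of 106. H1-2, H2AC18, H2AC6 and H2BC5 are highest in PMCA2 knockdown, H4C8 is highest in control and H4C3 is lowest in PMCA2 knockdown.

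Clustered H3 genes, which encode the replication-dependent H3.1 and H3.2 proteins, had calls of smaller size, none past 0.74 log2 units from control. H3C7 ran from 168 to 186 (median 177) in PMCA2 knockdown, 135 to 153 (median 138) in NHERF1 knockdown and 137 to 150 (median 141) in HER2 knockdown, against 144 to 162 (median 149) in control. PMCA2 knockdown arrays lay above all others, and the other 2 knockdowns overlapped control. It rose 1.36-fold in PMCA2 knockdown (adjusted p = 3.43e-06), and its -0.25 ± 0.07 log2 units in NHERF1 knockdown (adjusted p = 0.00286) was -0.11 on chip 2 alone (adjusted p = 0.384). Its -0.2 in HER2 knockdown (adjusted p = 0.0141) was -0.13 on chip 2 alone (adjusted p = 0.284) and -0.16 without control replicate 1 (adjusted p = 0.0503). With no background correction H3C7 was 0.22, -0.11 and -0.09 in PMCA2, NHERF1 and HER2 knockdown, beside 0.44, -0.25 and -0.2. H3C10 rose 1.67-fold in PMCA2 knockdown, with medians of 164 there and 131 in control, and H3C8 rose 1.38-fold there and fell 1.27-fold in HER2 knockdown. H3C3, H3C4 and H3C6 were not called in PMCA2 knockdown, with values of -0.13, 0.05 and 0.01 log2 units, and were called lower in the other 2 knockdowns. H3C3 passed the floor on 0 of 6 NHERF1 knockdown, 1 of 6 HER2 knockdown and 5 of 6 control arrays. Its falls there were at least 1.07-fold, a bound set against the lowest measurable signal. H3C3 passed the filter only with the control arrays counted, so its falls do not count as support. In both knockdowns the arrays of H3C3 and of H3C4 overlapped control.

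H4 genes, most of which encode the same protein, were called lower than control in 5, 6 and 5 of 7 cases in PMCA2, NHERF1 and HER2 knockdown. H4C8 ran from 214 to 232 (median 226) in PMCA2 knockdown, 118 to 127 (median 120) in NHERF1 knockdown and 153 to 167 (median 159) in HER2 knockdown, against 267 to 291 (median 274) in control. All 4 groups were separate and all 3 knockdowns were below control, by -0.45, -2.31 and -1.32 log2 units, each ± 0.05 (adjusted p = 2.91e-08, 1.18e-23 and 4.57e-18). H4C12 had medians of 242, 170 and 165 in the 3 knockdowns, against 288 in control, and H4C14 had 188, 146 and 159, against 224. H4C12 fell 1.29-fold, 2.39-fold and 2.5-fold, and H4C14 fell 1.36-fold, 2.21-fold and 1.82-fold, in the order PMCA2, NHERF1, HER2 knockdown. For H4C14 the PMCA2 knockdown and control arrays touched at 196, which is the highest value in the knockdown and that of control replicate 1. These H4 folds depend on the background correction: without it H4C8 was -1.19 and -0.79 log2 units in NHERF1 and HER2 knockdown, H4C12 -0.78 and -0.81, and H4C14 -0.61 and -0.48, all still called. H4C15 fell in all 3 as well, by 1.35-fold, 1.86-fold and 1.6-fold.

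H4C3 fell in PMCA2 knockdown, as H4C8, H4C12, H4C14 and H4C15 did, but was not called in the other 2 knockdowns. It ran from 9471 to 12567 (median 12182) in PMCA2 knockdown, 13378 to 18150 (median 16812) in NHERF1 knockdown and 14665 to 15815 (median 15500) in HER2 knockdown, against 14465 to 16067 (median 15248) in control. PMCA2 knockdown arrays lay below all control arrays, and the other 2 knockdowns overlapped control. It fell 1.31-fold in PMCA2 knockdown (adjusted p = 2.38e-05) and was 0.08 ± 0.07 and 0 ± 0.07 log2 units from control in NHERF1 and HER2 knockdown (adjusted p = 0.365 and 0.96). H4C5 rose 1.26-fold in PMCA2 knockdown (adjusted p = 0.00343) and fell 1.3-fold in NHERF1 knockdown (adjusted p = 0.000949), with overlapping arrays in both cases.

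Set against each other, PMCA2 knockdown held more histone mRNA than NHERF1 knockdown for most tested genes. Of the 41 genes 33 were higher and H4C3 alone was lower, where 27.3% of all tested genes were called higher and 30% lower (57.3% in either direction), with a median of 0.69 log2 units against -0.01 over all genes. The 33 include H2BC6, which passed the filter through PMCA2 knockdown, and H3C14, which passed it mainly through PMCA2 and HER2 knockdown. Neither counts as support. H2AC19 was 5.1-fold higher, H2AC18 4.88-fold, H2BC21 4.85-fold, H1-2 4.55-fold and H2BC5 4.4-fold, and H4C8 was 3.63-fold higher. In these 6 genes the arrays of the 2 knockdowns did not overlap. The H4C8 difference was 1.86 log2 units, and 0.89 without background correction. H4C3 was lower by -0.46 ± 0.07 log2 units (adjusted p = 2.85e-06). Without NHERF1 knockdown replicate 2, the genes called lower numbered 2.

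PMCA2 knockdown was also above HER2 knockdown, with 31 of 41 genes higher and 1 lower, where 26.4% of all tested genes were called higher and 28.9% lower (55.3% in either direction). H2BC6 and H3C1, among the 31, passed the filter only with the PMCA2 knockdown arrays counted and do not count as support. The median was 0.53 log2 units, against -0.01 over all genes. H2AC19 was 3.76-fold higher, H1-2 3.02-fold, H2BC5 2.49-fold and H2BC21 2.41-fold, and the gene called lower was again H4C3, at -0.39 ± 0.07 log2 units (adjusted p = 3.12e-05). Without HER2 knockdown replicate 2, and with no filter on dim probes, 2 genes were called lower. NHERF1 knockdown stood below HER2 knockdown for 19 of 41 genes and above it for H2BC9 and H3C8, where 25.4% of all tested genes were called lower and 26.8% higher (52.2% in either direction). H3C14, among the 19, passed the floor on 0 NHERF1 knockdown and 5 HER2 knockdown arrays and does not count as support. H2BC21 was 2.02-fold lower in NHERF1 than in HER2 knockdown, H4C8 1.99-fold and H2BC5 1.77-fold (without background correction H2BC21 was -0.58 log2 units, beside -1.01, and H4C8 -0.4, beside -0.99), and H4C12 differed by 0.07 ± 0.06 log2 units (adjusted p = 0.347). The 2 genes higher in NHERF1 knockdown, with 1.16-fold and 1.2-fold, had overlapping arrays, and their number was 1 on each chip alone and without NHERF1 knockdown replicate 3, 5 or 6 or HER2 knockdown replicate 2 or 6.

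**Figure D3:**
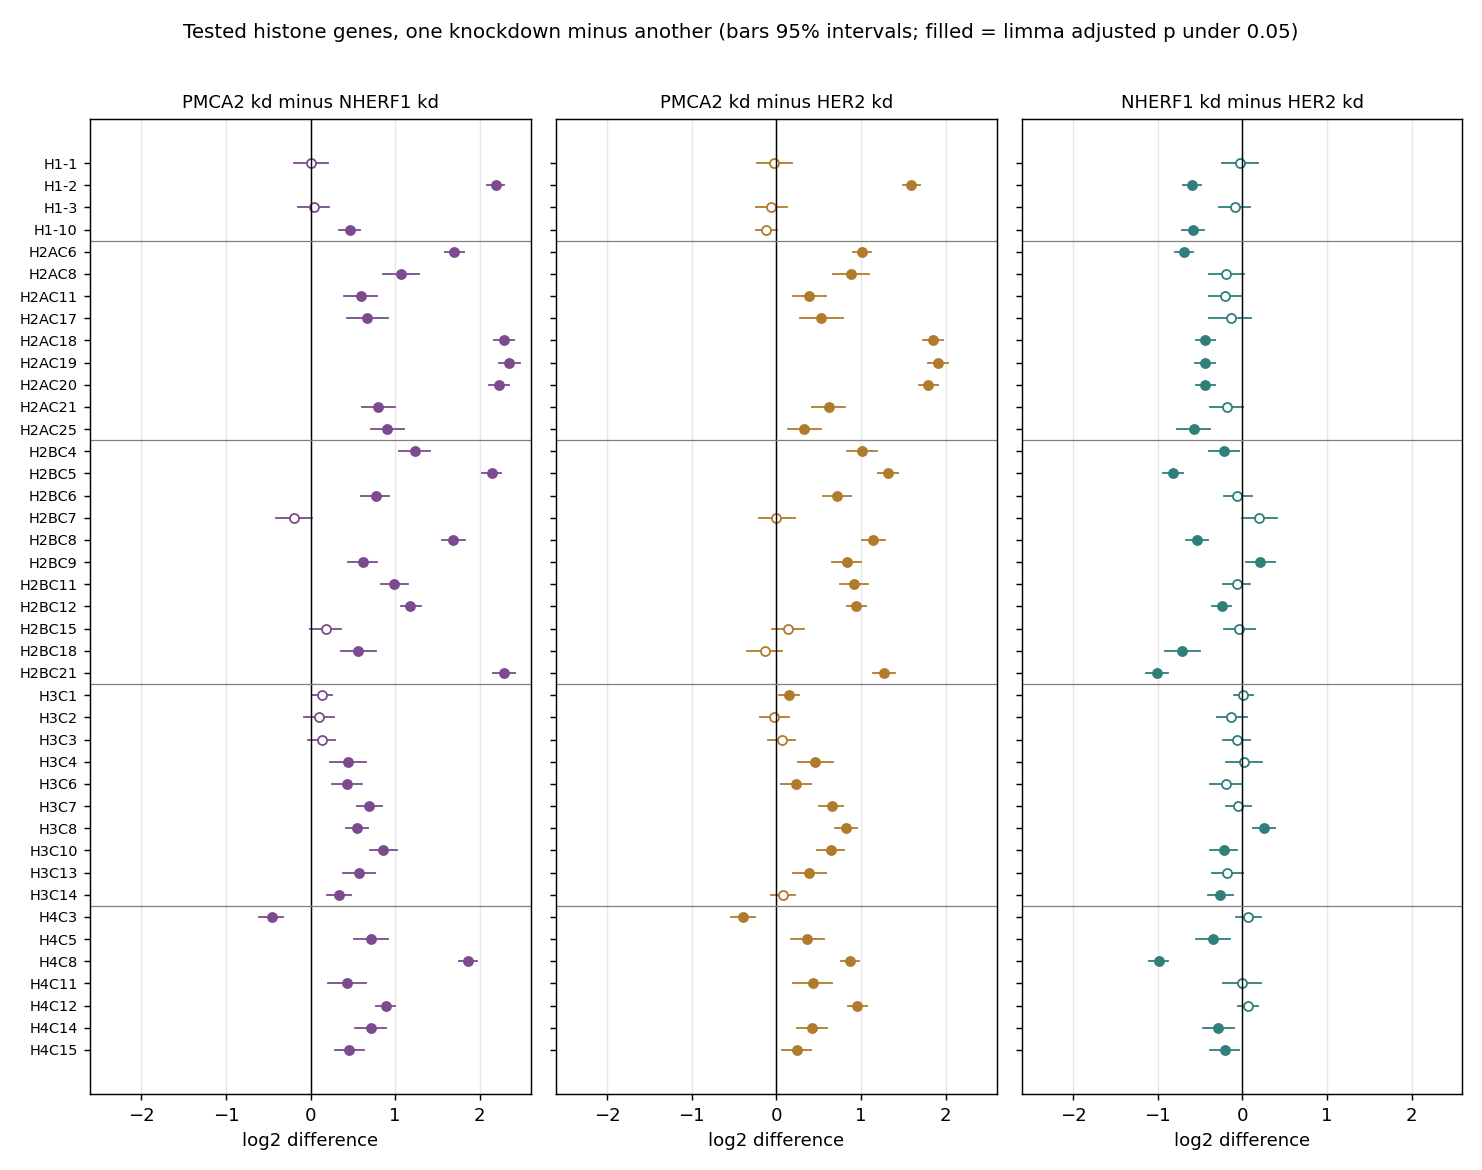
Log2 difference (x axis) of the 41 tested histone genes (y axis, by class from H1 at the top) for PMCA2 minus NHERF1, PMCA2 minus HER2 and NHERF1 minus HER2 knockdown, from left to right; bars are 95% intervals, filled points have a limma adjusted p under 0.05 and n = 6 arrays a group. H4C3 is the filled point left of 0 in the left and middle panels, at -0.46 and -0.39.

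By position, all 10 tested genes of the large chromosome 1 cluster were called in PMCA2 knockdown, 8 higher, H3C14 among them, and 2 lower. In NHERF1 knockdown 8 of the 10 were called lower, H3C13 among them. In HER2 knockdown 3 were called higher, H3C14 among them, and 6 lower. Of all tested genes, 33.8% and 33% were called higher and lower in PMCA2 knockdown and 30.9% lower in NHERF1 knockdown. In HER2 knockdown 35.3% of all tested genes were called higher and 31.8% lower. Of 29 tested genes of the chromosome 6 cluster, 15 were called higher and 3 lower in PMCA2 knockdown, 0 and 15 in NHERF1 knockdown, and 2 and 15 in HER2 knockdown. H2BC6 is among those higher in PMCA2 knockdown, and H3C3 among those lower in the other 2. The called shares of these 29 genes were 62.1%, 51.7% and 58.6% in PMCA2, NHERF1 and HER2 knockdown, below the 66.9%, 66.6% and 67.1% of all tested genes. H2A and H2B genes often start back to back: 11 such pairs had starts 194 to 248 bases apart, and both genes were tested in 4. H2BC8 and H2AC8 rose by 0.94 and 0.85 log2 units in PMCA2 knockdown, H2BC11 and H2AC11 by 0.83 and 0.61, H2BC4 and H2AC6 by 0.51 and 0.56, and H2BC21 and H2AC20 by 1.7 and 1.09. In HER2 knockdown H2BC21 was 0.43 log2 units above control and H2AC20, which starts 236 bases away, was 0.7 below; this contrast within a pair was not tested as such. Of 10 tested non-histone genes that neighbour the chromosome 6 cluster, 5 were called higher and 1 lower in PMCA2 knockdown, 5 and 1 in NHERF1 knockdown, and 3 and 3 in HER2 knockdown, a called share of 60% in each. PRSS16, a serine protease gene, had 1.64, 1.67 and 1.77 log2 units and HMGN4, a nucleosome-binding protein gene, had 0.9, 1 and 1.26 in the order PMCA2, NHERF1, HER2 knockdown, all called.

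Histone genes outside the naming rule, the variant histones, are for the most part expressed through the whole cycle from polyadenylated mRNAs, though not all of them are. For this list and those that follow, the share of all tested genes called in either direction was 66.9%, 66.6% and 67.1% in PMCA2, NHERF1 and HER2 knockdown. Of 10 tested, 5 were called higher and 3 lower in PMCA2 knockdown, 3 and 5 in NHERF1 knockdown, and 2 and 4 in HER2 knockdown, with called shares of 80%, 80% and 60%. H2AJ, an H2A variant, rose by 0.92 ± 0.06 log2 units in PMCA2 knockdown and was -0.16 in NHERF1 knockdown and -0.03 in HER2 knockdown (adjusted p = 1.96e-13, 0.0225 and 0.688). MACROH2A2, a variant with a large extra domain, fell by -0.81, -0.92 and -0.88 log2 units, and H3-3B, which encodes H3.3, by -0.26, -0.37 and -0.46, in the order PMCA2, NHERF1, HER2 knockdown.

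Genes that drive histone transcription were called more often higher than lower in the knockdowns. Of 7 tested of 10, 6 were higher and 0 lower in PMCA2 knockdown, 5 and 1 in NHERF1 knockdown, and 5 and 0 in HER2 knockdown, with called shares of 85.7%, 85.7% and 71.4%. CDK2, the kinase that activates the histone coactivator NPAT, rose by 0.99, 1.25 and 1.59 log2 units, NPAT by 0.36, 0.25 and 0.36, and COIL, the Cajal body protein, by 0.32, 0.43 and 0.28. HINFP, the H4 activator, was 0.13, -0.05 and 0.25, with the middle value not called (adjusted p = 0.439). Of 14 genes for 3′ processing and decay of histone mRNA, 7 were higher and 3 lower in PMCA2 knockdown, and 8 and 1 in each of the other 2; the called shares of 71.4%, 64.3% and 64.3% were near those of all genes. SLBP, which binds the stem-loop, was 0.03 ± 0.05 in PMCA2 knockdown (adjusted p = 0.591) and rose by 0.68 in NHERF1 knockdown and 0.2 in HER2 knockdown. ERI1, an exonuclease of the stem-loop end, rose by 1.24, 0.65 and 1.47, TUT7, which adds uridines before decay, by 0.95, 0.27 and 0.34, and LSM10, of the U7 particle, was -0.67, -0.04 and -0.35 with no call for the middle value (adjusted p = 0.515). The triplets stand in the order PMCA2, NHERF1, HER2 knockdown.

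Histone chaperones, which carry histones to DNA, divided. Of 20 tested, 5 were higher and 6 lower in PMCA2 knockdown, 10 and 1 in NHERF1 knockdown, and 9 and 4 in HER2 knockdown, and the called shares of 55%, 55% and 65% were below those of all genes. NASP, a chaperone of H3 and H4, rose by 0.69, 0.95 and 0.87 log2 units, and CHAF1B, of the assembly factor CAF-1, fell by -0.99 in PMCA2 knockdown and -0.62 in HER2 knockdown and was 0 ± 0.07 in NHERF1 knockdown (adjusted p = 0.968). For S phase, 29 replication genes were tested: 10 were higher and 8 lower in PMCA2 knockdown, 23 and 3 in NHERF1 knockdown, and 19 and 3 in HER2 knockdown, with called shares of 62.1%, 89.7% and 75.9%. MCM2, of the replicative helicase, rose by 0.86, 1.45 and 1.1, and TK1, thymidine kinase, fell by -1.38, -1.45 and -1.26, while PRIM1, the DNA primase, was 0.02 ± 0.05 in PMCA2 knockdown (adjusted p = 0.674) and rose by 1.09 in NHERF1 knockdown and 0.95 in HER2 knockdown. In PMCA2 minus NHERF1 knockdown 3 of these 29 genes were called higher and 21 lower, with differences from -1.07 to 0.82 log2 units. Of the 41 histone genes 33 were called higher, H2BC6 and H3C14 among them, and 1 lower in that comparison. Of all tested genes 27.3% were called higher there and 30% lower. The share of cells in S phase was not measured, and its part in the histone levels was not tested.

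**Figure D4:**
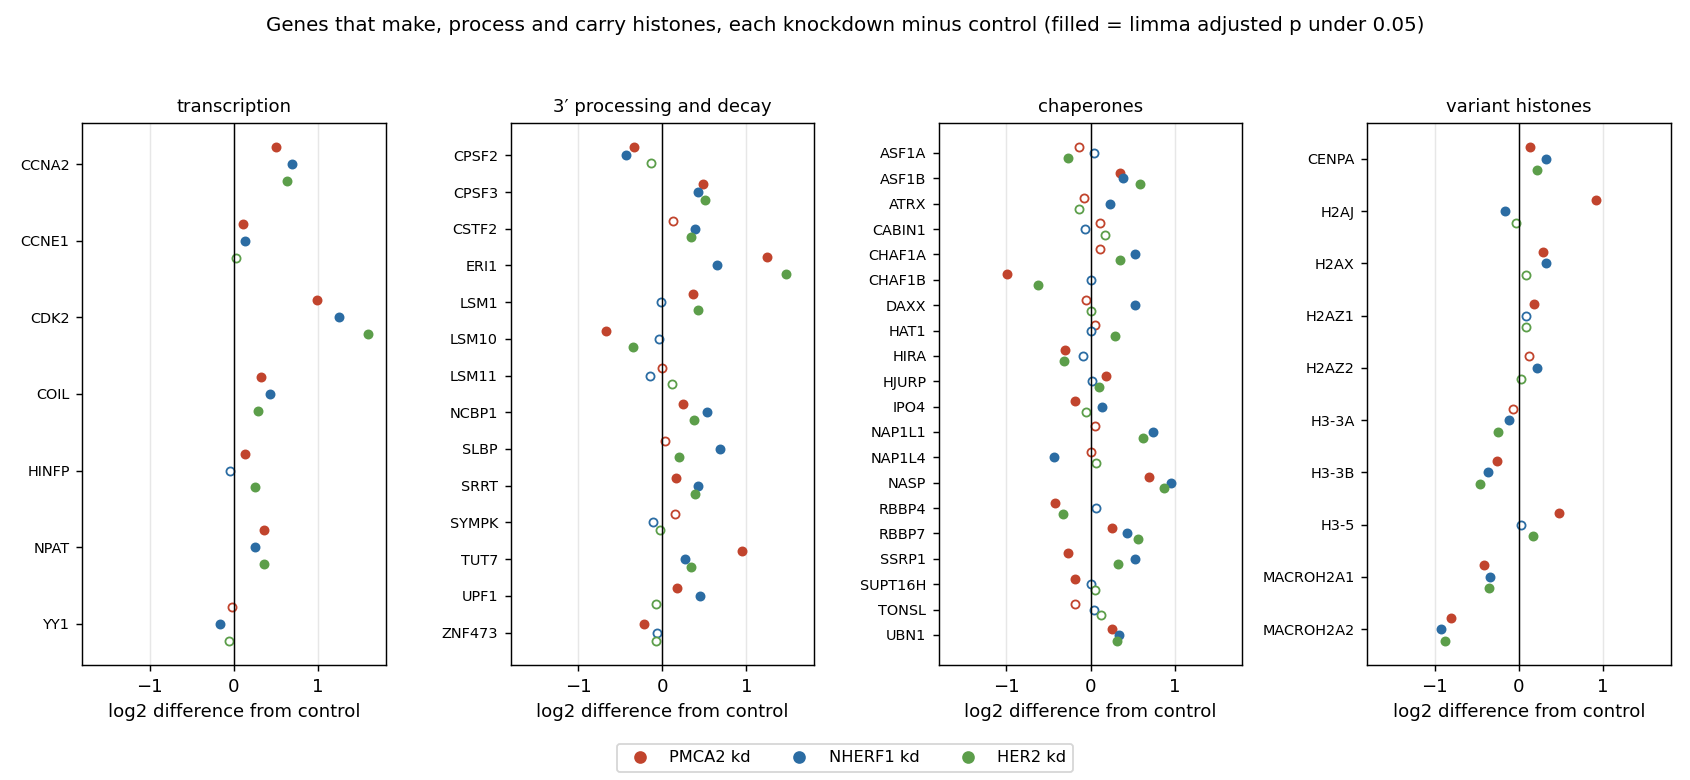
Log2 difference from control (x axis) of genes for histone transcription, 3′ processing and decay of histone mRNA, histone chaperones and variant histones (y axis), with PMCA2, NHERF1 and HER2 knockdown as red, blue and green points; filled points have a limma adjusted p under 0.05 and n = 6 arrays a group. CDK2 lies at 0.99, 1.25 and 1.59 and MACROH2A2 at -0.81, -0.92 and -0.88.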

How the data were processed

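Gene expression was measured on 24 Illumina arrays, 6 per group, grouped by the genotype labels; chips come from the array titles. The deposited table holds probe intensities on a linear scale that the authors had normalized, with the method unnamed in labels and headers. Sorted intensities differ by at most 0.406% between arrays and the smallest is 81.6. Another deposited table of 48 per-sample columns was not used, because its column names match no label. For arrays, their number limits the precision.

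Probes were named by the array annotation and RefSeq (GRCh38.p14): 30113 of 47323 have 1 symbol, 8 several and 17202 none listed. In limma 3.58.1 (R 4.3.3) intensities were background-corrected (normexp on the olfactory receptor probes, offset 16), quantile normalized and put on the log2 scale. The 22586 probes above 106 on at least 6 arrays were kept, the brightest per gene was used, and a linear model with no covariates over all 24 arrays and eBayes tested 12469 genes. Where a group was at background, folds are lower bounds. Arrays were not paired by replicate number in the model. Over 36 same-numbered pairs the deviations correlated with r between -0.056 and 0.111 (median 0.02), and 4 pairs passed 0.1. Of 72 pairs with other numbers on the same chip 1 passed 0.1 (median 0.01), and of 108 pairs across chips 0 did. Whether this is a weak pairing was not tested. Simulated data for PMCA2 knockdown minus control over 12469 genes had 50 genes changed at each fold size. There 44% of 1.2-fold and 100% of 1.5-fold changes were recovered. Far fewer genes were changed than the 66.9% called in the real comparison, so these shares do not give the sensitivity of the tests here. Values in full are given for the 12 genes with the largest called difference from control and the brightest of each class; other lists give up to 4 genes a direction. Members and lists were chosen with earlier results of these data known. Alternatives were background correction, scaling, filter, probe choice, blocks, single chips, only the groups compared, and leaving out each array.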

Additional observations from a re-analysis of the deposited data

Results flagged for a closer look

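In 6 of 56 sets of 6 arrays checked among the 14 genes given in full, 1 array stood apart from the other 5 by more than Dixon's 95% limit; chance alone gives about 1 in 20 sets. Each value in parentheses is the gap to the nearest array as a share of the group's range on the background-corrected, quantile-normalized log2 scale, while the intensities beside it are the deposited ones. On the deposited intensities the shares of H4C3 and H4C14 were 0.62 and 0.6, under that limit, and those of the other 4 were 0.7 to 0.8. For H4C8 in NHERF1 knockdown, replicate 3 was highest at 127, next to 121 (0.68). For H2AC19 in NHERF1 knockdown, replicate 5 was highest at 381, next to 337 (0.74). H3C7 in NHERF1 knockdown had replicate 4 highest at 153, next to 139 (0.77). H2AC20 in PMCA2 knockdown had replicate 4 lowest at 954, next to 1050 (0.73). H4C3 in PMCA2 knockdown had replicate 2 lowest at 9470, next to 11400 (0.65). H4C14 in control had replicate 1 lowest at 196, next to 222 (0.63). No comparison of these genes differed between the 2 chips at an adjusted p under 0.05 in limma, of 84 tested.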

How the results depend on the processing

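No difference of a tested gene that was called changed sign under any alternative run. Genes called higher in HER2 knockdown than control numbered 7, and 4 with no background correction, with no filter on dim probes, on chip 1 alone and on chip 2 alone, and 4 to 6 with 1 array left out. Genes lower in PMCA2 than in HER2 knockdown numbered 1, and 2 with no filter on dim probes, and 1 to 2 with 1 array left out. Genes higher in NHERF1 than in HER2 knockdown numbered 2, and 1 with no background correction, normexp offset 50, no filter, chip 1 alone, chip 2 alone and only the 2 groups compared, and 1 to 3 with 1 array left out. Genes lower in PMCA2 than in NHERF1 knockdown numbered 1, and 1 to 2 with 1 array left out. The other counts stayed within 1.5 times: with 1 array left out, PMCA2 knockdown gave 25 to 26 higher and 5 lower than control, NHERF1 knockdown 23 to 25 lower and 0 higher, and HER2 knockdown 18 to 21 lower. No label pairs same-numbered arrays. With the replicate block, PMCA2 knockdown gave 26 higher and 5 lower than control. NHERF1 knockdown gave 24 lower there, and HER2 knockdown 6 higher and 21 lower. Among arrays of other groups, the best match of an array had its own number in 9 of 24 cases. Whether that is more than chance gives was not tested. H2BC12 and H4C14 lost their call in NHERF1 minus HER2 knockdown on chip 1 alone (adjusted p = 0.165 and 0.411). The cause of these moves was not tested. Signal over background limits 31 of the 72 genes, which were not tested.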
